A study of Mus musculus with 16 samples.

Results

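The comparison set the 5 ileum mucosa libraries with the most Cd79a transcript against the 5 with the least, out of 16 libraries from 16 mice. Cd79a encodes the Ig-alpha chain of the B cell receptor and was used as a measure of how much B cell RNA each piece of mucosa held. The 16 libraries were ranked by Cd79a counts per 1000000 reads counted on genes (CPM), ranks 1 to 5 are called the high side, ranks 12 to 16 the low side, and the 6 libraries between them belong to neither side. Since the sides were chosen by a measured level, Cd79a is left out of the findings, and a gene that differs between them is one that varied together with Cd79a in these mice.

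The study compared WT C57Bl/6 mice with Slfn3KO mice, a whole-body knockout of the Schlafen gene Slfn3 on the same strain background, and each genotype had 4 male and 4 female mice by the labels. The labels give an age of 8 weeks and call the tissue intestinal mucosa, the study's methods give ileum and an older age, and no mouse was pooled or treated. The 5 libraries of the high side were all WT, namely male WT 3, female WT 3, female WT 4, male WT 4 and female WT 2. The 5 libraries of the low side were 3 Slfn3KO (male Slfn3KO 2, female Slfn3KO 4 and male Slfn3KO 1) and 2 WT (male WT 1 and male WT 2). Of the 6 on neither side, 5 were Slfn3KO and 1 was WT. The genotype mix of 5 WT and 0 Slfn3KO against 2 WT and 3 Slfn3KO gave a two-sided Fisher's exact p of 0.167, and genotype and Cd79a level are therefore partly confounded in what follows.

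In 4 of the 5 high side libraries (WT 3 and WT 4 of each sex) the transcripts Xist and Ddx3y went against the labelled sex, while they matched the label in the other 12 libraries. The values of the high side below include these 4 libraries, and the comparison without them is given last. Between 20823279 and 30813117 reads per library were counted on genes, and 3 counts, used as a floor, corresponded to 0.0974 to 0.144 CPM, which covers counting error only. The reads of mitochondrial genes took 2.33% to 3.74% of a library on the high side and 2.70% to 3.62% on the low side.

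Organised lymphoid follicles of the ileum, the Peyer's patches and smaller isolated follicles, hold B cells held in place by stromal cells that secrete the chemokine Cxcl13, which attracts cells bearing the receptor Cxcr5. Within them germinal centres form, where B cells diversify their antibody genes, and over them lies a follicle-associated epithelium with M cells, which carry antigen inward through receptors such as Gp2. The villi around the follicles instead hold plasma cells that secrete IgA, T cells and the absorptive and secretory epithelium. In bulk tissue, fewer cells of a type and less RNA per cell cannot be told apart, and the follicles themselves were not counted here.

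Short DNA motifs were looked for in the 250 bases before the start of each gene, to show the sequence next to genes that varied together. The motifs were the octamer ATGCAAAT, bound by Oct factors with the coactivator Pou2af1, a kappaB site of 10 bases, bound by the NF-kappaB family, and the palindrome bound by Ebf1 (TCCC, any 2 bases, GGGA), each searched on both strands. Of the 14186 genes tested, 10686 had a RefSeq promoter (GRCm38.p6), and 1.65% of these held the octamer, 0.234% the kappaB site and 1.11% the Ebf1 palindrome. Among 422 genes with a promoter that were higher on the high side (584 in all, defined below), the shares were 3.08%, 0.474% and 2.37%. In 12 such genes that were lower, of 21, no match was present. The 4 promoters printed here are from genes of the results, 5′ to 3′ on the strand of the gene, with the match in capitals. Ccr6 (chr17:8235793-8236042, plus strand) holds the octamer and Cd22 (chr7:30879029-30879278, minus strand) the Ebf1 palindrome, and Ltb (chr17:35194257-35194506, plus strand) and Madcam1 (chr10:79664309-79664558, plus strand) hold the kappaB site.
Ccr6: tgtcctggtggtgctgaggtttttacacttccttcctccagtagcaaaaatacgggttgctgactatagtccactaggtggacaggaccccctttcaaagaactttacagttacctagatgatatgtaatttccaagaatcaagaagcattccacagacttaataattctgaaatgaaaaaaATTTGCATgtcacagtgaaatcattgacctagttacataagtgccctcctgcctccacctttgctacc
Cd22: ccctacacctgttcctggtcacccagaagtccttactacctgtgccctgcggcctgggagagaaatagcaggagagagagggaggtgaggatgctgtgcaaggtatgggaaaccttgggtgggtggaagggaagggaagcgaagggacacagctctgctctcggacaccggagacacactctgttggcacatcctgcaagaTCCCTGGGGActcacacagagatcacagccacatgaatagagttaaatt
Ltb: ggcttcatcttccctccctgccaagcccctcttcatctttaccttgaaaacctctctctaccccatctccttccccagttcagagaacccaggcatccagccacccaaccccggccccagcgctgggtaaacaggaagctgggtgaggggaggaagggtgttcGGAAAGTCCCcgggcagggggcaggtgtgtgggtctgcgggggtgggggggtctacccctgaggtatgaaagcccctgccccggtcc
Madcam1: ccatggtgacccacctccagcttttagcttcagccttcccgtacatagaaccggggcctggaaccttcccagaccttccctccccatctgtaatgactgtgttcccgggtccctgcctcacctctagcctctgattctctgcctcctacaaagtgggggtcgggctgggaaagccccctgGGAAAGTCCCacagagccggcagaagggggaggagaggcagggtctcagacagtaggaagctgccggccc
In Ccr6, Ltb and Madcam1 the capitals are the reverse complement of the motif, so that the motif reads on the other strand. Ltb and Madcam1 were the 2 genes with a kappaB site among the 422, and Ccr6 and Cd22 were among the 2 with the octamer and the 3 with the palindrome of 33 promoters from 4 B cell and follicle lists. A match describes these letters and was not tested as a binding site.

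Cd79a itself (ENSMUSG00000003379, chromosome 7, 24897381 to 24902197, mm10) was 93.8, 56.7, 55.4, 16.96 and 13.8 CPM in the high side libraries, in the order given above, and 1.46, 1.35, 0.876, 0.703 and 0.265 CPM on the low side. The lowest high side library held 9.42 times as much as the highest low side library. The steps at the edges were small, since male Slfn3KO 4, just outside the high side, had 13.69 CPM against 13.80 in female WT 2, and female WT 1, just outside the low side, had 1.83 against 1.46 in male Slfn3KO 2. Ranking by Ms4a1 (CD20) instead gave 4 of the same 5 libraries on each side, and ranking by Cr2, the complement receptor of B cells and follicular dendritic cells, gave the same high side and 4 of the same 5 on the low side. By Ms4a1, male Slfn3KO 4 (23.3 CPM) took the place of female WT 2 (22.3 CPM) on the high side. That side then held 4 WT and 1 Slfn3KO libraries, with a two-sided Fisher's exact p of 0.524. An all-WT high side thus rested on a small step.

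**Figure D1:**
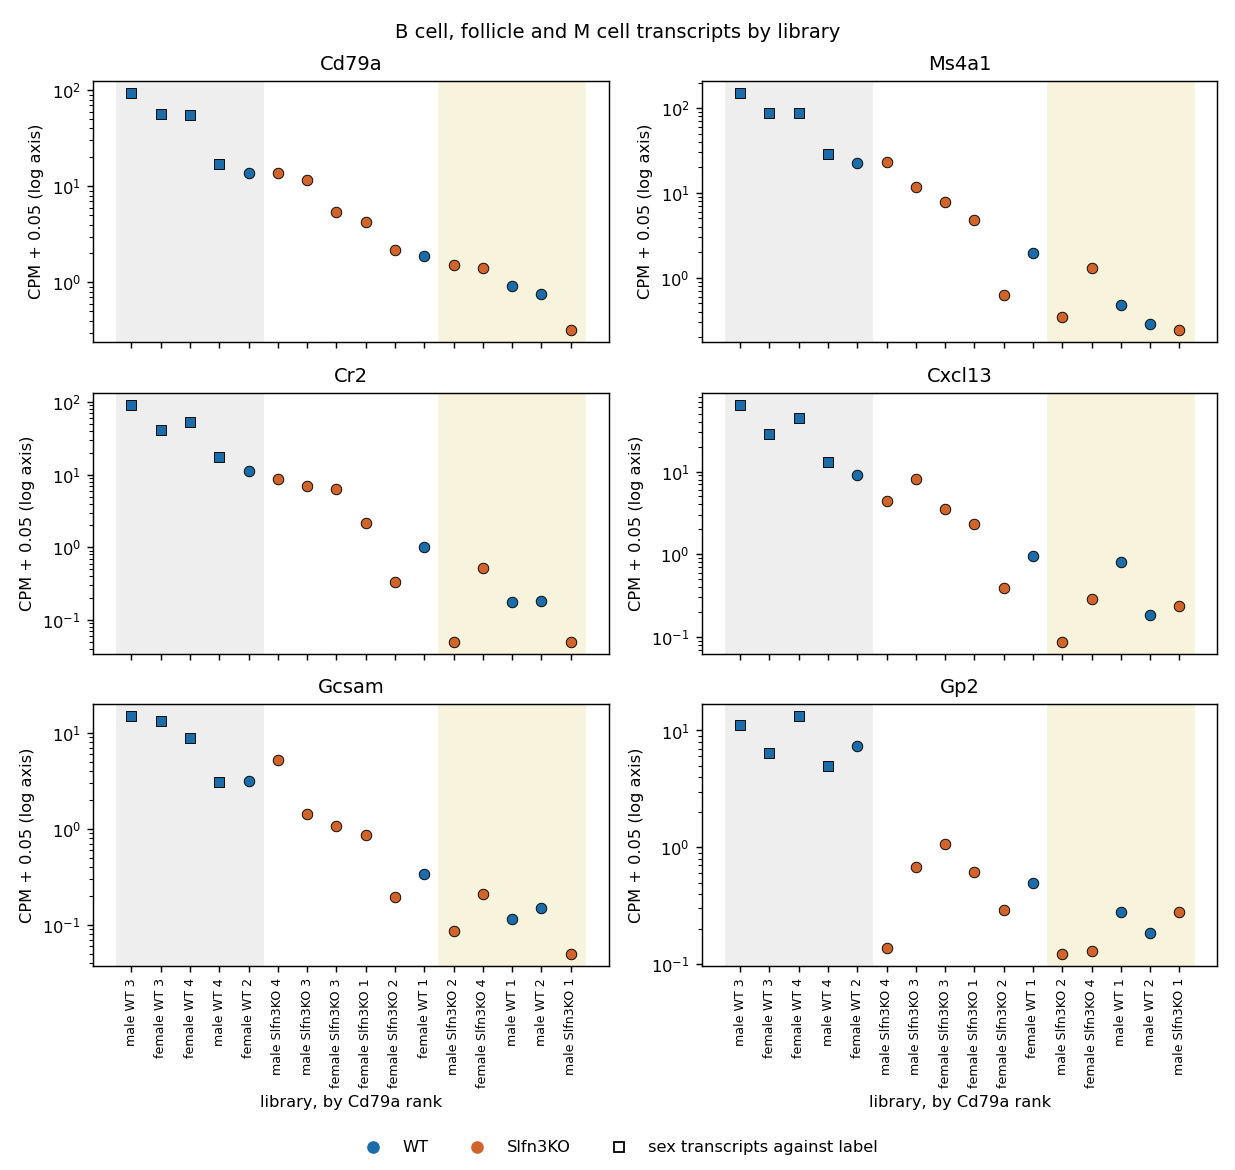
CPM of Cd79a, Ms4a1, Cr2, Cxcl13, Gcsam and Gp2 in each of the 16 libraries, with 0.05 added for the log axis, ordered by Cd79a rank, blue for WT and orange for Slfn3KO, squares for sex transcripts against the label, grey shading for the high side and yellow for the low side. Ms4a1, Cr2 and Cxcl13 were lower in the unshaded libraries with less Cd79a, though not at every step, whereas Gp2 was between 4.89 and 13.2 CPM in the high side and at or under 1.01 CPM in the other 11 libraries.

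Across all genes, 605 of 14186 tested were called between the sides, which is 4.26% of those tested, by edgeR's quasi-likelihood test when the Benjamini-Hochberg adjusted p was under 0.05 and the fold change 1.5 or more. Of these, 584 (4.12%) were higher and 21 (0.148%) lower on the high side, and 361 of the higher genes were at least 4-fold higher. The median log2 difference was 2.27 in the genes called higher, -1.08 in those called lower and -0.02 in all genes tested. The sides did not overlap in CPM for 690 genes with the high side above (4.86%) and for 34 with the high side below (0.24%). Over all genes tested, 6628 of 14186 differences were above 0. Most of the called difference was therefore on the higher side, and 81 of the 584 genes belonged to the 28 lists of cell types and pathways described next. The counts of each list below stand against these shares, and the genes of a list are not independent of each other.

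B cell transcripts showed the largest differences. The sides were chosen by a B cell transcript, so these values are a description, and a call, which rests on a p-value, serves here only to count the genes past the threshold. Of 18 genes of the B cell receptor and its co-receptors, 14 were called higher and none lower, with a median log2 difference of 4.95. Ms4a1 (ENSMUSG00000024673, chromosome 19, 11249675 to 11266241) was 151, 86.6, 86.9, 28.9 and 22.3 CPM on the high side and 0.293, 1.27, 0.422, 0.234 and 0.1896 CPM on the low side, a log2 difference of 7.24 (SE 0.7197). Cr2 (ENSMUSG00000026616, chromosome 1, 195136811 to 195176716) was 91.97, 41.3, 52.5, 17.7 and 11.2 CPM against 0, 0.476, 0.1298, 0.134 and 0 CPM, a log2 difference of 8.11 (SE 0.8598), the largest of all genes tested. In both genes every high side library lay above every low side library, and male WT 3 was the highest. Cd79b, the partner of Cd79a, rose by 4.70 on the log2 scale, and Cd22, an inhibitory receptor, by 6.04. The kinase Lyn, which myeloid cells also use, was 47.9 to 101 CPM on the high side and 44.5 to 83.1 CPM on the low side and differed least, by 0.12.

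Of 8 transcription factors of B cells, 7 were called higher, with a median of 3.73. Ebf1, which specifies the lineage, was 15.4, 10.2, 11.3, 2.39 and 2.75 CPM against 0, 0.198, 0.0974, 0 and 0.0379 CPM, and Pax5, which maintains it, 93.05, 46.4, 52.2, 16.2 and 12.7 CPM against 0.183, 0.873, 0.325, 0.402 and 0.1896 CPM. Their log2 differences were 6.86 (SE 0.835) and 6.74 (SE 0.693), with no overlap of the sides. Spib, shared by B cells and M cells, differed by 3.53, and Irf8, also used by dendritic cells, was not called, at -0.28.

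Germinal centre transcripts were called higher in 8 of 11 tested, with a median of 2.65. Gcsam, a signalling protein of germinal centre B cells, was 14.8, 13.05, 8.79, 2.997 and 3.100 CPM on the high side and 0.0366, 0.159, 0.0649, 0.1004 and 0 CPM on the low side, a log2 difference of 6.73 (SE 0.698). The germinal centre repressor Bcl6, which other cells also express, was 31.7, 24.3, 30.6, 13.5 and 11.1 CPM against 20.2, 5.75, 8.08, 10.5 and 20.4 CPM, and Fas 19.3 to 32.2 CPM against 23.5 to 36.4 CPM, with log2 differences of 0.71 and -0.23 and overlapping sides. These were 2 of the 3 genes of the list that were not called.

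The chemokines and receptors that arrange lymphoid tissue were called higher in 8 of 9 tested, with a median of 4.84. Cxcl13 (ENSMUSG00000023078, chromosome 5, 95956951 to 95961068) was 64.6, 28.4, 44.6, 12.9 and 8.95 CPM on the high side and 0.0366, 0.238, 0.746, 0.134 and 0.1896 CPM on the low side, a log2 difference of 6.78 (SE 0.762), and its receptor Cxcr5 was 50.9, 24.4, 30.97, 8.04 and 5.59 CPM against 0.183, 0.675, 0.2596, 0.201 and 0.0379 CPM, a difference of 6.40. The receptor Ccr6, whose promoter is printed above, differed by 6.27. Ccl21a, the T zone and lymphatic chemokine, was 0.417 to 1.67 CPM against 0.293 to 0.834 CPM and was not called (0.97).

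Of 10 genes of the lymphotoxin and BAFF families, which build and maintain follicles, 6 were called higher and the median was 3.20. The ligand Ltb was 43.2, 24.2, 24.8, 8.16 and 8.95 CPM against 2.89, 2.22, 2.53, 2.38 and 1.099 CPM, a log2 difference of 3.21 (SE 0.485), and the BAFF receptor Tnfrsf13c differed by 6.15. The lymphotoxin receptor Ltbr, carried by stroma and epithelium, was 97.3, 122, 99.3, 112 and 126 CPM against 116, 122, 123, 103 and 127 CPM, a difference of -0.15 that was not called and was the smallest of the list.

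Transcripts of follicular dendritic cells and of the vessels through which lymphocytes enter were called higher in 7 of 8 tested, with a median of 3.27. Madcam1, the vascular adhesion molecule that admits gut-homing lymphocytes, was 8.24, 2.84, 6.95, 1.82 and 2.58 CPM on the high side and 0.1098, 0.0794, 0.162, 0.0669 and 0.0758 CPM on the low side, a log2 difference of 5.37 (SE 0.552). It passed the filter on low counts through the high side alone, so this value is a description and no p is given. The sulfotransferase Chst4 was 22.8 to 67.2 CPM against 22.2 to 44.2 CPM and was not called (0.19). Pecam1, of endothelium in general, was 22.9, 12.8, 15.2, 4.74 and 6.85 CPM against 2.49, 4.09, 3.505, 2.51 and 2.31 CPM, a log2 difference of 2.001 (adjusted p = 0.0151), and was the 1 of 6 endothelial genes called. Prox1, of lymphatic endothelium, was 3.12 to 4.497 CPM against 3.18 to 6.14 CPM.

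**Figure D2:**
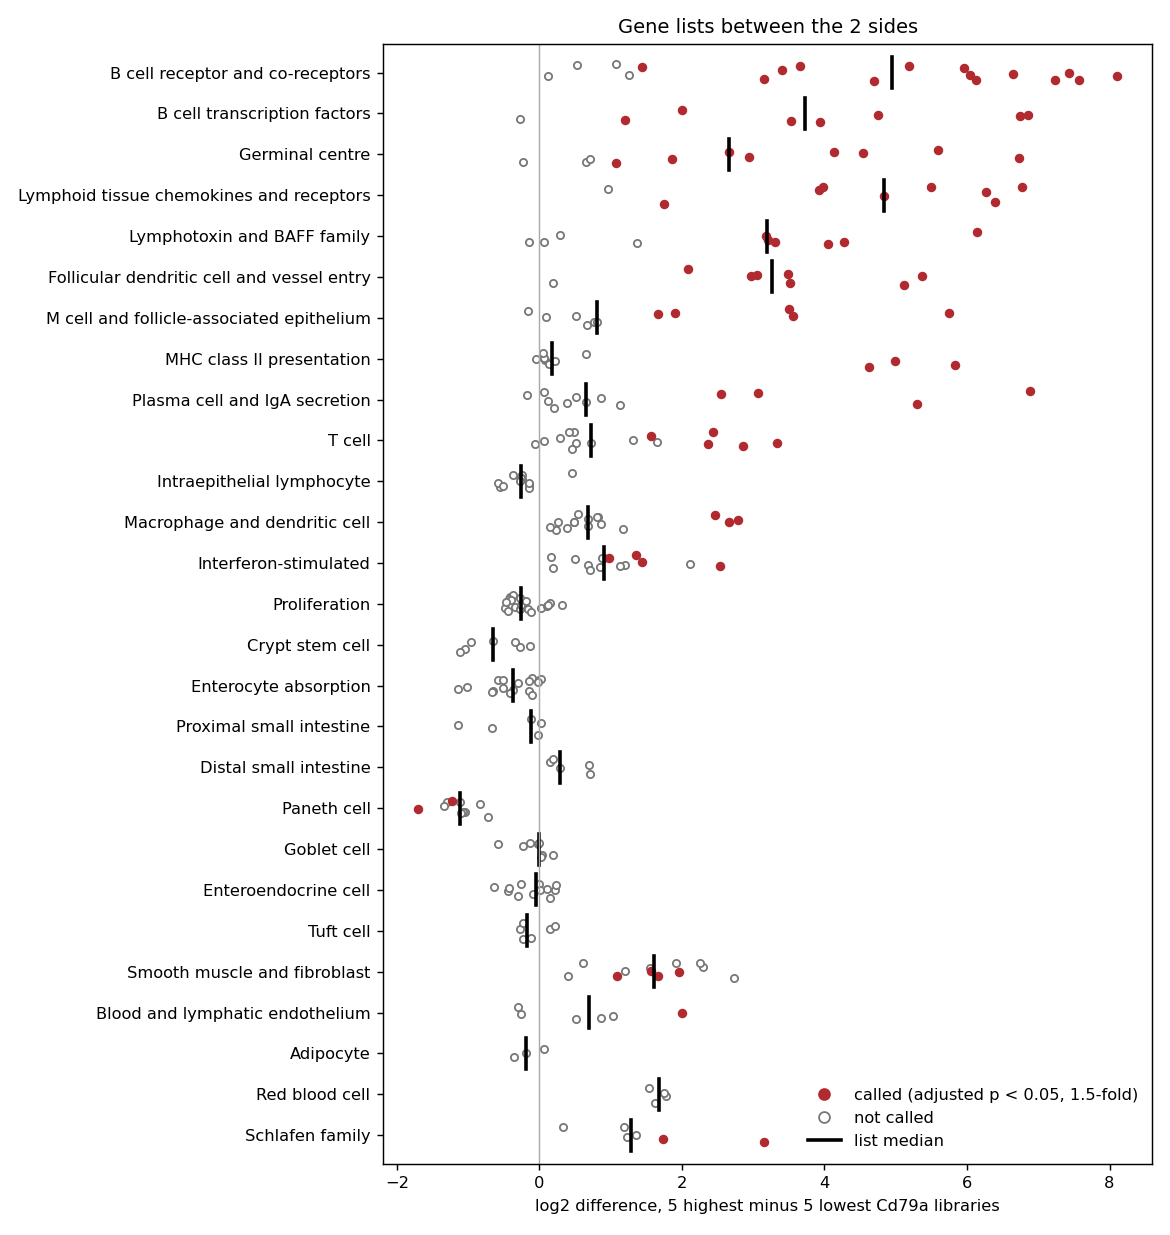
Log2 difference between the high and the low side (horizontal axis) for each tested gene of 27 lists (rows), filled red where called, with the median of each list as a black bar. The B cell, germinal centre, chemokine, lymphotoxin and follicular dendritic cell lists have medians from 2.65 to 4.95, and the epithelial lists lie around or below 0, with the Paneth cell list at -1.11.

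M cell and follicle-associated epithelium genes were called higher in 5 of 11, namely Gp2, Sox8, Psg18, H2-M2 and Tnfaip2, and their median was 0.80. Gp2 (ENSMUSG00000030954, chromosome 7, 119442544 to 119459272), the M cell receptor for bacterial fimbriae, was 11.04, 6.37, 13.2, 4.89 and 7.34 CPM on the high side and 0.0732, 0.0794, 0.227, 0.134 and 0.227 CPM on the low side, a log2 difference of 5.75 (SE 0.407). Sox8, a transcription factor of M cell maturation, was 2.08, 0.948, 1.63, 0.379 and 0.917 CPM against 0.0732, 0.0794, 0.1298, 0.134 and 0.0379 CPM, a difference of 3.56. Both separated the sides without overlap, although Sox8 was at or under 0.134 CPM in the 5 low side libraries, near the floor of 3 counts. Gp2 and Sox8 passed the filter on low counts through the high side alone. Their values are a description, as for the B cell genes, and no p is given. Ccl20, the chemokine of the follicle-associated epithelium, was 10.4, 5.64, 9.61, 3.87 and 2.93 CPM against 10.6, 1.905, 3.31, 2.61 and 2.92 CPM and was not called (0.52), with male Slfn3KO 2 on the low side above every library of the high side. Tnfaip2 lost its call when any of 7 of the 10 libraries was left out.

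Other immune cell lists were called in part. Of 10 genes of MHC class II presentation, the 3 called higher were H2-Oa, H2-Ob and H2-DMb2, of which the first 2 form the H2-O chaperone of B cells. H2-Ob was 131, 67.99, 79.7, 19.9 and 20.3 CPM against 0.842, 1.83, 0.844, 1.07 and 0.758 CPM, a log2 difference of 5.84, whereas the invariant chain Cd74 was 3247, 3102, 2071, 3069.8 and 494 CPM against 3468, 2100.2, 2443, 1824 and 1149.8 CPM, a difference of 0.05. Female WT 2 was the lowest of the 10 libraries in Cd74. Of 13 plasma cell and antibody secretion genes, Ighd, Ighm, Irf4 and Mzb1 were called. Ighd, the IgD of naive B cells, was 208, 97.3, 122, 32.7 and 22.9 CPM against 0.549, 1.79, 0.454, 0.703 and 0.455 CPM (6.89), while Igha, the IgA heavy chain, was 2285, 3209.8, 1194, 612 and 526 CPM against 1769, 1357, 1429.6, 686 and 313 CPM, a log2 difference of 0.38 (SE 0.564, adjusted p = 0.809). Jchain, which joins secreted IgA, gave 0.52 and the antibody transporter Pigr -0.18, neither of them called. Of the antibody variable genes, 1 of 46 heavy and 2 of 47 kappa genes tested were called, with medians of 0.89 and 1.03.

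Among 15 T cell genes tested, Cd28, Icos, Pdcd1, Tcf7 and Lef1 were called higher, and the median was 0.73. Lef1, a factor of naive T cells and of early B cells, was 4.87, 2.71, 2.36, 0.266 and 1.88 CPM against 0.183, 0.397, 0.227, 0.234 and 0.0758 CPM (3.33). The inhibitory receptor Pdcd1 was 4.16, 2.39, 2.62, 1.21 and 0.568 CPM against 0.329, 0.357, 0.422, 0.167 and 0.152 CPM (2.85). Lef1 and Pdcd1 passed the filter on low counts mainly through the high side, so their values are a description and no p is given. The T cell receptor chain Cd3e was 16.3, 16.4, 9.87, 11.9 and 5.15 CPM against 15.3, 10.2, 12.8, 13.7 and 7.01 CPM, a difference of -0.06 with the sides overlapping. Leaving out any of 8 of the 10 libraries ended the calls of Cd28 and Icos, and any of 6 that of Tcf7. None of 13 intraepithelial lymphocyte genes was called by edgeR's test, with a median of -0.26, values from -0.58 (Gzma, a granule protease) to 0.46 (Cd8b1, a coreceptor chain).

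Of 16 macrophage and dendritic cell genes, Il22ra2, Lyz2 and Flt3 were called higher. Lyz2, the lysozyme of macrophages and neutrophils, was 189.7, 118, 111, 39.1 and 61.4 CPM against 17.1, 21.3, 23.1, 14.4 and 13.2 CPM, a log2 difference of 2.47 (SE 0.375, adjusted p = 0.00428). Il22ra2, the soluble IL-22 binding protein of subepithelial dendritic cells, was 14.8, 6.68, 10.4, 3.49 and 4.37 CPM against 1.098, 1.35, 1.36, 0.7698 and 0.948 CPM, a difference of 2.78 (SE 0.401, adjusted p = 0.00328). In both genes the sides did not overlap, while Mertk, a macrophage receptor for dying cells, stood at 99.6, 110.0, 113, 131 and 121 CPM against 106, 100.5, 84.8, 101 and 104 CPM (0.15). Flt3 lost its call without any of 3 libraries (female WT 4, male Slfn3KO 2 or male WT 2).

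Interferon-stimulated genes were called higher in 4 of 15, with a median of 0.91, and 15 of 15 differences were above 0. Over all genes tested, 4.12% were called higher and 6628 of 14186 differences were above 0. The 4 were Oas2, Oas3 and Oas1a, which make the activator of an antiviral RNase, and the regulator Irf7. Oas2 was 26.7, 63.3, 6.35, 14.7 and 13.4 CPM on the high side and 3.92, 4.72, 4.38, 5.05 and 1.78 CPM on the low side, a log2 difference of 2.53 (SE 0.5503, adjusted p = 0.0255). Isg15, a ubiquitin-like protein, was 48.1, 107, 24.6, 37.9 and 49.5 CPM against 25.2, 28.3, 35.99, 37.8 and 10.8 CPM (0.85, adjusted p = 0.334) and was not called. Female WT 3, 1 of the 4 libraries with a sex mismatch, was the highest in Oas2 and Isg15. The call of Oas2 was lost when any of 6 of the 10 libraries was left out, that of Oas3 with any of 8, of Irf7 with any of 5 and of Oas1a without male WT 1 or male WT 2.

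The 21 genes lower on the high side included 2 of 10 Paneth cell genes, Lyz1 and Ang4, and the median of that list was -1.11, with 0 of 10 differences above 0. Over all genes tested, 0.148% were called lower and 6628 of 14186 differences were above 0. Paneth cells lie at the crypt base and secrete lysozyme, defensins and other antimicrobial proteins. Ang4, an antimicrobial ribonuclease, was 27.5, 86.7, 71.00, 60.7 and 79.7 CPM on the high side and 230.4, 296, 173, 160.0 and 149.7 CPM on the low side, a log2 difference of -1.70 (SE 0.298, adjusted p = 0.00932). The sides did not overlap for Ang4, and its call held without any 1 of the 10 libraries. Lyz1 (ENSMUSG00000069515, chromosome 10, 117287796 to 117292868) was 541, 2294, 1011, 891 and 1383 CPM against 2617, 3033, 3158, 2611 and 2126 CPM, a difference of -1.23 (SE 0.306, adjusted p = 0.0479), with female WT 3 above male Slfn3KO 1. The call of Lyz1 was lost when any of 8 libraries was left out, at log2 differences from -1.54 to -1.05. The defensin Defa21 gave -0.73 and was not called. Outside the list, the defensin Defa35, named after its values were seen, was 0.8602, 6.68, 1.67, 1.33 and 1.75 CPM against 4.06, 4.88, 79.3, 64.1 and 28.8 CPM, a log2 difference of -3.99 (SE 0.917, adjusted p = 0.0334), the largest downward difference of all genes tested. It was far higher in male WT 1, male WT 2 and male Slfn3KO 1 than in the rest, the sides overlapped, and the call was lost without any of 7 libraries. The defensin genes are near-identical copies between which reads can be split.

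None of the other epithelial lists had a called gene by edgeR's test. The crypt stem cell list had a median of -0.65 with 0 of 7 differences above 0, against 6628 of 14186 over all genes tested. This did not hold in the comparisons given last. Without WT 3 and WT 4 of each sex and ranked anew, 6 of 7 were above 0 (median 0.06), against 6874 of 13959 genes. In Slfn3KO libraries alone 5 of 7 were above 0 (median 0.006), against 7276 of 13943 genes. Lgr5, the stem cell receptor, was 3.19, 7.36, 3.22, 2.997 and 6.64 CPM against 5.89, 11.2, 9.704, 6.23 and 13.04 CPM (-1.04, adjusted p = 0.0826), and Olfm4 was 41.00, 98.5, 42.7, 26.4 and 131 CPM against 95.9, 162, 122, 170.0 and 141 CPM (-1.11, adjusted p = 0.153). The medians were -0.36 for 17 absorption genes, -0.26 for 20 proliferation genes, -0.01 for 8 goblet cell genes and -0.05 for 12 enteroendocrine genes. Sucrase-isomaltase (Sis) was 1928, 1315, 2278, 3858 and 2574 CPM against 4035, 2464, 3142, 4409.5 and 3272 CPM (-0.58), the mucin Muc2 3995, 3779, 4060.4, 3691 and 4837 CPM against 4025, 3732, 3276, 3126 and 5524 CPM (-0.00) and the proliferation antigen Mki67 gave -0.19. 

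Position along the intestine was checked with 5 transcripts of the proximal and 5 of the distal small intestine, none of which was called by edgeR's test. The differences were above 0 for 5 of the 5 distal genes (median 0.29) and for 1 of the 5 proximal genes (median -0.11). Gata4, a transcription factor of the proximal small intestine, was 4.23, 2.26, 14.8, 64.8 and 50.1 CPM on the high side and 83.96, 6.75, 65.8, 94.7 and 39.9 CPM on the low side (-1.14, adjusted p = 0.609). It was low in the 3 libraries with the most Cd79a and in female Slfn3KO 4 of the low side, so the sides overlapped. In the 6 libraries on neither side it was 103, 52.1, 45.4, 1.28, 3.07 and 104 CPM. The distal markers included Fabp6, the ileal bile acid binding protein, at 10290.3, 9322, 8125, 11758 and 16220.5 CPM against 4088, 8700.1, 6246, 1717 and 13104 CPM (0.69, adjusted p = 0.487), with overlap of the sides. The part of position in the other differences was not tested.

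**Figure D3:**
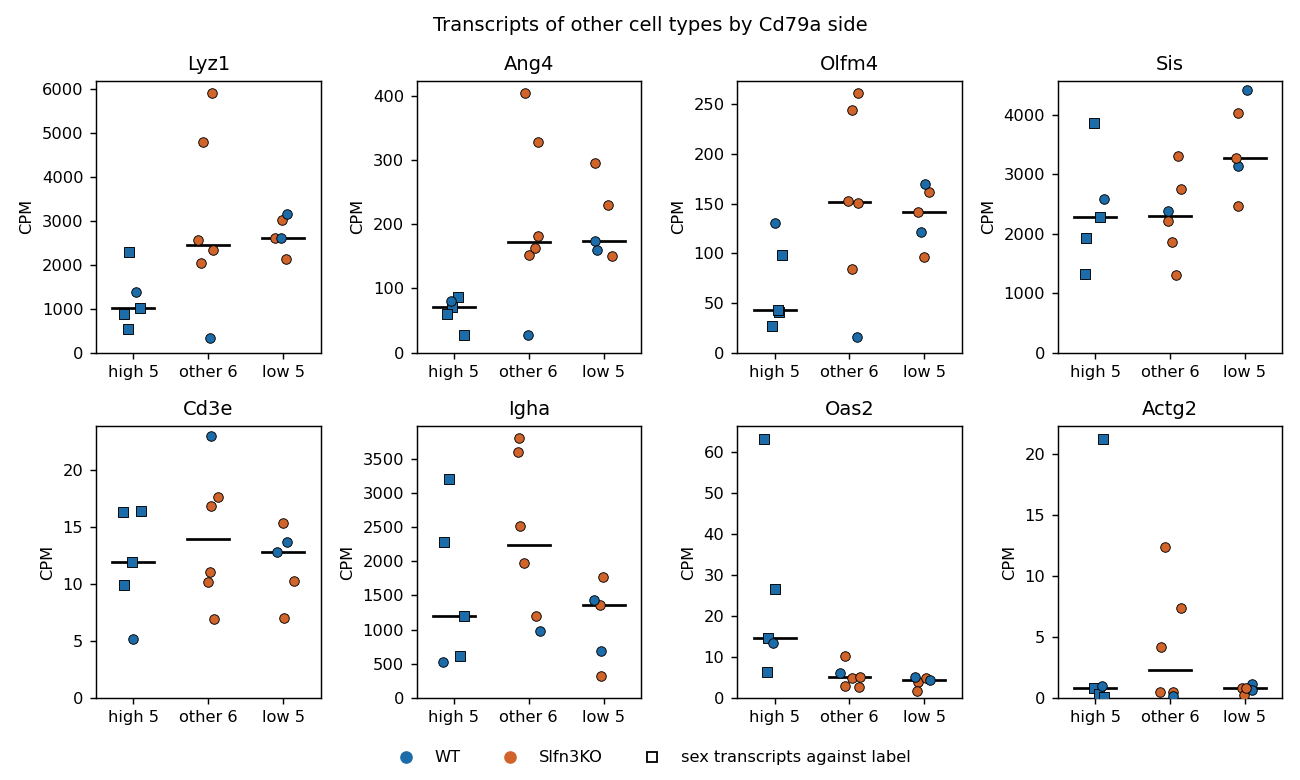
CPM (vertical axis, from 0) of 8 transcripts of other cell types in the 5 high side, 6 other and 5 low side libraries (horizontal axis), blue for WT and orange for Slfn3KO, squares for sex transcripts against the label, with the median as a bar. Ang4 was at or under 86.7 CPM in the high side and at or above 149.7 CPM in the low side, and the 1 WT library between the sides was at 27.8 CPM, while Cd3e and Igha overlapped between the sides.

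Stromal transcripts also differed in part. Of 12 smooth muscle and fibroblast genes, Dcn, Lum, Pdgfra and Col1a2 were called higher, and the median was 1.61. These 4 are fibroblast genes, and Pdgfra, a growth factor receptor, was 6.34, 3.702, 4.68, 3.23 and 3.41 CPM against 0.915, 1.63, 1.27, 0.7698 and 2.46 CPM (1.56, adjusted p = 0.0173). The muscle actins were not called, and Actg2 was 0.789, 0.316, 0.0429, 21.2 and 1.004 CPM against 0.769, 0.198, 1.14, 0.669 and 0.796 CPM, with the value of male WT 4 far above the rest. The calls of Col1a2 and Dcn were lost without any of 7 and 5 libraries, and that of Pdgfra without male WT 1. The summed level of this list ranged from 46.8 to 134 CPM on the high side and from 20.9 to 36.9 CPM on the low side, and its part in the other differences was not tested. None of 3 adipocyte genes tested and none of 4 red blood cell genes was called by edgeR's test, with medians of -0.19 and 1.68, and no pancreatic acinar gene passed the filter on low counts.

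Beyond the lists, 8 further genes were named for the largest differences among calls without overlap of the sides, leaving out predicted genes, those with Rik or Gm names, and antigen receptor segments. Chst3, a chondroitin sulfotransferase, was 53.98, 25.7, 36.5, 8.92 and 9.39 CPM against 0.0732, 0.317, 0.2596, 0.1004 and 0.0379 CPM, a log2 difference of 7.31. Cacna1i, a T-type calcium channel, was 11.4, 5.51, 8.37, 2.43 and 1.53 CPM against 0, 0.0397, 0.0649, 0.0669 and 0 CPM, and Stra6, the receptor for retinol binding protein, 11.3, 5.24, 6.95, 1.404 and 1.004 CPM against 0.1098, 0.0794, 0, 0 and 0.0379 CPM. Cilp, a cartilage matrix protein, gave 6.90 and Ms4a4c, a relative of Ms4a1, 6.81. Tspan10, a tetraspanin, had 147 counts on the high side and 0 on the low side, and Csn2, the milk protein beta-casein, 108 and 0. Against a floor of 3 counts over the low side they were at least 55.8-fold and 41.0-fold higher. Trim30b had 1 count in male WT 2 and 0 in the other low side libraries, against 6.13, 4.61, 2.45, 1.37 and 0.524 CPM on the high side.

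The lower genes named by the same rule, with the same exclusions, were 3. Bambi, a decoy receptor of TGF-beta signalling, was 1.47, 3.16, 2.14, 1.56 and 3.32 CPM on the high side and 4.21, 4.96, 5.45, 4.18 and 7.28 CPM on the low side, a log2 difference of -1.23 (adjusted p = 0.0169). Pde3a, a cyclic nucleotide phosphodiesterase, was 21.4, 26.7, 23.7, 30.1 and 30.5 CPM against 41.2, 33.5, 38.5, 44.5 and 35.4 CPM (-0.61, adjusted p = 0.0294). The defensin pseudogene Defa-ps7 was 0.215, 0.587, 0.343, 0.304 and 0.437 CPM against 1.24, 1.43, 0.746, 0.636 and 0.834 CPM (-1.44). Defa-ps7 passed the filter on low counts through the low side, so its value is a description and no p is given. Bambi lost its call without female WT 4, Pde3a without any of 6 libraries and Defa-ps7 without any of 5.

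Of 6 tested genes of the Schlafen family, to which the deleted gene belongs, 2 were called higher (Slfn8 and Slfn1) between the sides, whose genotypes also differ. The deleted gene Slfn3 had 43 counts over the high side and 6 over the low side, and did not pass the filter. By library these were 19, 7, 13, 0 and 4 counts against 0, 2, 1, 2 and 1. The WT libraries of the low side, male WT 1 with 1 and male WT 2 with 2, thus held about as few as the Slfn3KO libraries. Slfn8 (ENSMUSG00000035208, chromosome 11, 83002158 to 83020810) was 1.72, 1.54, 4.12, 3.57 and 1.35 CPM on the high side and 0.0366, 0.0794, 0.195, 0.536 and 0.493 CPM on the low side, a log2 difference of 3.15 (SE 0.614). Slfn8 passed the filter on low counts through the high side, so this value is a description and no p is given. Slfn1 gave 1.73 (adjusted p = 0.0302), Slfn4 1.23 (adjusted p = 0.0511), Slfn5 1.35, Slfn2 1.18 and Slfn9 0.33, the last 4 of them not called. Slfn8 lost its call without male WT 1, and Slfn1 without any of 7 libraries.

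Whether these genes also vary with Cd79a in mice that were not used to form the sides was asked in the 6 libraries between them, of which 5 are Slfn3KO. The slope was the log2 change of a gene per doubling of Cd79a, fitted with edgeR. Over all 14186 genes, 47.9% had a slope above 0, and of the 584 genes called higher 530 did, with a median slope of 0.21 against -0.0035 over all genes. Of the 21 genes called lower, 10 had a slope below 0, as did 52.1% of all genes, and the median of these 21 was 0.0013. The lower genes depended on single libraries, since 18 of 21 had a slope below 0 without female WT 1 (median -0.30) and 1 of 21 without female Slfn3KO 2 (median 0.23). With 6 libraries no gene passed an adjusted p under 0.05, and 262 had an unadjusted p under 0.05. With genotype as a covariate, which sets female WT 1 apart, 30 genes passed, 7 of them called between the sides, 3494 had an unadjusted p under 0.05, and 483 of the 584 higher and 18 of the 21 lower genes had the sign of their side difference. Without female WT 1, 36 genes passed. When 1 of the 6 was left out, the number of the 605 genes with the sign of their side difference ranged from 474 to 541, against 540 with all 6.

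The slopes had the sign of the side difference in some lists and not in others. They were above 0 for 17 of 18 B cell receptor genes (median 0.79), 8 of 8 B cell transcription factors (0.66), 10 of 11 germinal centre genes (0.43) and 7 of 8 follicular dendritic cell and vessel genes (0.65). Ms4a1 was 23.3, 11.8, 7.83, 4.74, 0.576 and 1.91 CPM in male Slfn3KO 4, male Slfn3KO 3, female Slfn3KO 3, female Slfn3KO 1, female Slfn3KO 2 and female WT 1, and Cr2 was 8.53, 6.83, 6.37, 2.09, 0.288 and 0.977 CPM, falling with Cd79a except that female WT 1 lay above female Slfn3KO 2 in both. The slopes were above 0 for 5 of 15 interferon-stimulated genes, with a median of -0.06, and the 10 Paneth cell genes had a median of -0.09. They were above 0 for 5 of 15 T cell genes (median -0.04), 7 of 7 crypt stem cell genes (0.14) and 15 of 17 absorption genes (0.11). Between the sides the differences of these lists were above 0 for 14, 0 and 1 genes. The slope was -0.19 for Oas2, -0.77 for Slfn8, 0.03 for Ang4 and -0.08 for Lyz1, and 0.36 for Lyz2. For Slfn8, female WT 1, the lowest of the 6 in Cd79a and the only WT, had 1.02 CPM. The 5 Slfn3KO libraries had 0.0866 to 0.336 CPM.

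**Figure D4:**
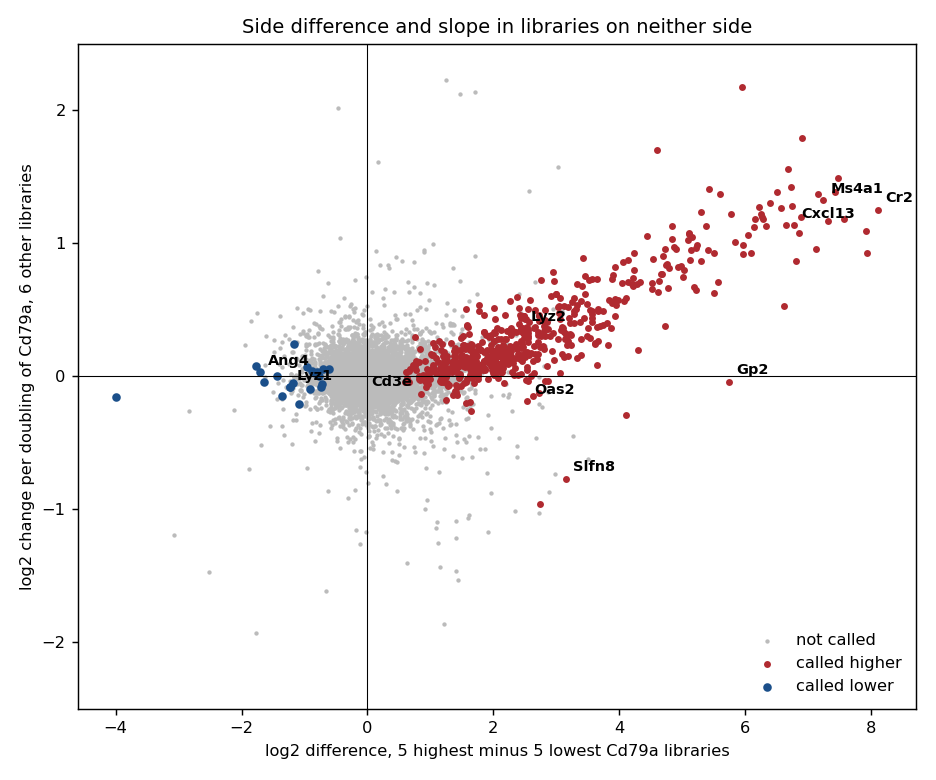
Each point is a tested gene, with its log2 difference between the high and the low side on the horizontal axis and its log2 change per doubling of Cd79a in the 6 libraries on neither side on the vertical axis, red where called higher, blue where called lower, grey otherwise, and 7 genes outside the vertical limits not shown. Called genes with large differences, such as Cr2 and Ms4a1, mostly have slopes above 0, while Gp2 at -0.04, Oas2 at -0.19 and Slfn8 at -0.77 do not.

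Gp2 differed from the B cell genes in this respect, with a slope of -0.04 that was not called. It was 0.0866, 0.634, 1.01, 0.569, 0.2401 and 0.448 CPM in the 6 libraries. At nearly equal Cd79a, female WT 2 had 13.80 CPM and male Slfn3KO 4 had 13.69. Ms4a1 was 22.3 and 23.3 CPM and Cr2 11.2 and 8.53 CPM in these libraries, whereas Gp2 was 7.34 and 0.0866 CPM, Il22ra2 4.37 and 0.910 CPM and Slfn8 1.35 and 0.0866 CPM. This pair was singled out after its values were seen and is 1 mouse of each genotype and of each sex, so it has no test.

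Genotype was then added to the question. In a fit of all 16 libraries with log2 Cd79a and genotype together, chosen after the data were seen, 0 of 14012 genes (0.0%) were called between Slfn3KO and WT at a given Cd79a level by edgeR's test, with 948 at an unadjusted p under 0.05 and a smallest adjusted p of 0.505. The same fit without the WT 3 and WT 4 libraries of each sex called 0 of 14428 genes (0.0%). There 735 had an unadjusted p under 0.05, and the smallest adjusted p by edgeR's test was 0.0695. The values that follow are from all 16 libraries. Slfn3KO minus WT was -1.86 on the log2 scale for Gp2 (SE 0.593, adjusted p = 0.72) and -2.34 for Slfn8 (SE 0.594, adjusted p = 0.72), and the values were -0.04 for Ms4a1 and -0.05 for Cr2. The medians were -0.68 over 15 interferon-stimulated genes and 0.96 over 10 Paneth cell genes, against -0.15 over 18 B cell receptor genes. The estimate was below 0 for 15 of the 15 interferon-stimulated genes and for 0 of the 10 Paneth cell genes, none of them past the threshold. A single direction was not particular to these lists. The estimate was also below 0 for 15 of 15 T cell, 13 of 13 intraepithelial lymphocyte and 17 of 17 absorption genes. For proliferation it was below 0 in 0 of 20 genes, and for smooth muscle and fibroblast in 0 of 12. The share over all genes is not given here.

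**Figure D5:**
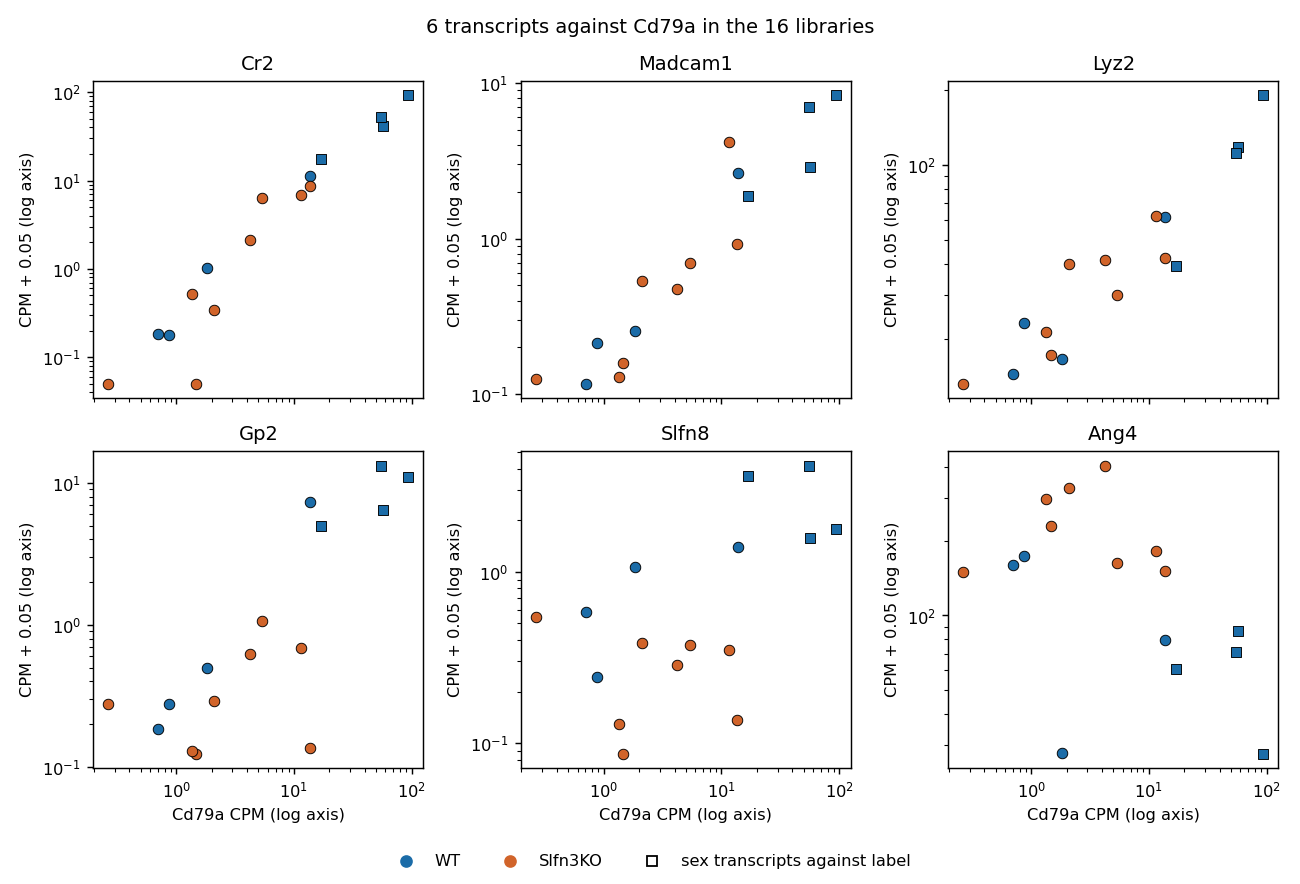
CPM of Cr2, Madcam1, Lyz2, Gp2, Slfn8 and Ang4 (vertical axes, log, with 0.05 added) against Cd79a CPM (horizontal axis, log) in the 16 libraries, blue for WT and orange for Slfn3KO, squares for sex transcripts against the label. Cr2 rose with Cd79a in both genotypes. Gp2 was at or under 1.01 CPM in all 8 Slfn3KO libraries, male Slfn3KO 4 with 13.69 CPM of Cd79a among them. It was as low in the WT libraries outside the high side, with 0.448 CPM in female WT 1, 0.227 in male WT 1 and 0.134 in male WT 2.

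The comparison within genotypes gave few or no calls. With genotype as a covariate between the 2 sides, 0 of 14186 genes (0.0%) were called by edgeR's test, with 2161 at an unadjusted p under 0.05 and a smallest adjusted p of 0.0567. The high side has no Slfn3KO library, so in this fit the side difference came from 5 WT against 2 WT libraries. The absence of calls therefore does not show what part genotype has. For the genes named above the estimates were 8.22 for Cr2, 7.73 for Ms4a1, 5.46 for Gp2, -1.44 for Ang4 and 2.28 for Oas2. Among the 8 Slfn3KO libraries, the 4 with the most against the 4 with the least Cd79a gave 0 calls of 14158 (0.0%), with 284 at an unadjusted p under 0.05. The B cell receptor list nevertheless had a median of 2.22, with Ms4a1 at 4.41 and Cr2 at 5.02, and the Paneth cell list a median of -0.17, with Ang4 at -0.18.

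Without the WT 3 and WT 4 libraries of each sex, the 12 others were ranked anew, so that the high side held 1 WT and 4 Slfn3KO libraries and the low side stayed as it was. Then 84 of 14081 genes (0.597%) were called, all of them higher. They included 12 of 18 B cell receptor genes, 5 of 9 chemokine genes and 3 of 7 follicular dendritic cell and vessel genes tested, but 0 of 9 M cell, 0 of 15 interferon-stimulated and 0 of 10 Paneth cell genes. Ms4a1 differed by 4.82, Cr2 by 5.49, Cxcl13 by 4.21 and Lyz2 by 1.32, all called, while Ang4 differed by -0.17, Lyz1 by -0.16 and Oas2 by 0.67, and Gp2 did not pass the filter. With the sides kept and the same 4 libraries removed, female WT 2 was the only high side library and 49 genes were called, with Gp2 at 5.48, Cr2 at 6.12, Ang4 at -1.45 and Cd74 at -2.28, where the lone library is assumed to vary like the others. There 40 of the genes named above lost their call. The differences were 0.09 for Icos, 0.33 for Cd28, 0.75 for Tnfaip2, 1.08 for H2-M2 and 1.02 for Slfn1, against 2.44, 2.36, 1.66, 1.91 and 1.73 with all 10 libraries. Igha at -1.21, Bcl6 at -0.33 and Slfn2 at -0.42, which were not called, turned sign.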

How the data were processed

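RNA of mucosa from 16 mice was sequenced as single stranded-library reads. After trimming and alignment to mm10 with STAR, the authors deposited the counts of each gene without normalization, in a table whose header names featureCounts (1.4.6 in the submitters' notes) with reverse-stranded counting, while the methods name another counter. Symbols came from GENCODE M21, which matched 45143 of 46078 gene identifiers. Coordinates are those of the deposited table.

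Libraries were ranked by Cd79a count divided by the library total. The sides were compared with edgeR 4.0.16 in R 4.3.3 (TMM factors, filterByExpr, robust quasi-likelihood F test, Benjamini-Hochberg adjustment), with Cd79a left out and SE as the absolute log2 difference divided by the square root of F. Displayed CPM are counts over library totals. In simulated counts 52% of 2-fold and 86% of 4-fold changes were recovered over 14020 genes, with 5 false calls among 143. The members, lists and named genes were chosen with earlier results of these data known. Named genes are a set of markers, the largest and smallest difference of each list, the largest and smallest non-overlapping calls outside the lists, leaving out predicted genes, antigen receptor segments, Xist and Y-linked genes, and the called members of lists with at most 5 calls. Some of these genes are not reported here. Alternatives were RLE factors, DESeq2 1.42.0, other filters and thresholds, covariates, other rankings and side sizes, and omitted libraries. Labels give no litters or batches, so p-values measure the spread between these mice. The sample titles do carry running numbers, and every high side library has a higher number than every other library. The libraries with sex transcripts against the label have the highest numbers of all. The sides are therefore aligned with this order, whose meaning is not stated, and its part in the differences was not tested. Columns of every library were mapped, and the authors' own comparisons were not used.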

Additional observations from a re-analysis of the deposited data

Results flagged for a closer look

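Within a side of 5 libraries, a library was marked where its gap to the nearest other library was unusually large against the range of the side (Dixon's criterion). Independent values of a normal distribution meet it in about 1 in 20 groups. It was applied to CPM without a log scale, in genes chosen for the text, so that rate need not hold here. Among 192 groups examined, 15 were marked. Female Slfn3KO 4 was the highest low side library in 5 of them, with 1.27 CPM of Ms4a1, 0.476 of Cr2, 1.79 of Ighd, 0.714 of Psg18 and 442.5 of Slc10a2, the ileal bile acid transporter. In Ms4a1 the next library held 0.422 CPM. This library ranked 13 by Cd79a, and leaving it out gave 578 calls between the sides.

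Male WT 4 was the highest high side library in Acta2 (19.5 CPM, next 4.19) and Actg2 (21.2 CPM, next 1.004), both muscle actins. Female WT 3 was the highest high side library in the defensin Defa35 (6.68 CPM, next 1.75). Male WT 3 stood above the high side in Psg18 (5.27 CPM) and H2-M2 (6.60 CPM). On the low side male WT 1 was highest in Cxcl13 (0.746 CPM) and lowest in Mertk (84.8 CPM), male Slfn3KO 2 was highest in Ccl20 (10.6 CPM, next 3.31), male Slfn3KO 1 was lowest in Cd28 (0.303 CPM) and male WT 2 held the only Trim30b count of its side (0.0335 CPM). That Trim30b value is under the floor of 3 counts.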

How the results depend on the processing

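The 605 calls became 948 with DESeq2's Wald test, 355 with at least 10 counts in every library, 1419 with an unadjusted p, 382 with 8 libraries a side, 985 for a slope on Cd79a over 16 libraries, 212 without female WT 3 and 4, 49 without WT 3 and 4 of both sexes (sides kept), 84 after ranking the 12 other libraries anew, 7 in WT libraries alone, 0 with genotype as a covariate and 0 in Slfn3KO libraries alone. The last of these, those without female WT 3 and 4 and the covariate of sex by transcripts were chosen after seeing the data. Omitting 1 library gave 398 (without male WT 2) to 896 calls (without female WT 2). The cause of these changes was not tested, beyond the fewer libraries or genes that some settings hold. Calls stayed within 1.5 times of 605 with RLE factors (615), no filter (710), labelled sex as a covariate (508), sex by transcripts (422) and ranking by Ms4a1 (532) or Cr2 (578). Ranking by TMM-scaled Cd79a gave 566 calls. The WT excess on the high side was 2 or 3 libraries with 4 or 8 libraries a side or ranking by Ms4a1 or Cr2, and -1 among the 12 libraries ranked anew (1 WT against 2). Of the called genes named, Defa-ps7 turned to 0.31 in those 12 libraries and Pde3a to 0.05 in Slfn3KO libraries alone, and no other changed sign there, with RLE factors, with genotype as a covariate, in WT libraries alone, without any 1 library or without WT 3 and 4 (sides kept). A test within Slfn3KO libraries of both sides was not run, since the high side has none.

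The replicate number as a block gave 27 calls. The numbers name different mice, and deviations of same-numbered libraries correlated between -0.40 and 0.59, so they were not taken as pairs. A gene under 3 counts cannot be told from 0 at this depth.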

Other observations

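Among the 60 genes with the largest rise on the high side were the constant regions of 4 IgG heavy chains, noticed after their values were seen. IgG is made by B cells that have switched class, as in germinal centre responses. Ighg2b was 413, 252, 306, 75.6 and 36.9 CPM on the high side, in the order of the ranking, and 2.42, 5.32, 4.48, 2.61 and 0.265 CPM on the low side, a log2 difference of 6.09 (SE 0.842). The sides did not overlap for Ighg2b. The differences were 5.498 for Ighg1, 5.95 for Ighg3 and 5.77 for Ighg2c, while Igha differed by 0.38. In the 6 libraries on neither side the slope on Cd79a was 0.92 for Ighg2b, with 61.5 CPM in male Slfn3KO 3 and 4.32 CPM in female Slfn3KO 2, against 0.13 for Igha. Reads of near-identical IgG genes can be split between them, so the single genes are uncertain.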
